A study of Mus musculus with 21 samples.

Results

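The comparison of BCR-ABL1 with empty vector (EV) in primary mouse B cell precursors rests on 4 RNA-seq libraries, 2 of each condition, out of 21 samples in the series and 6 RNA-seq libraries. Its members are the genes that passed a filter on low counts, which were 12786 of the 24421 genes in the count table. All cells came from 53BP1-/- mice on the C57BL/6 background, so the controls lacked the DNA repair factor 53BP1 as well. EV cells received the retroviral vector MIGR1, BCR-ABL1 cells the same vector with the human fusion kinase BCR-ABL1p210, and a further pair of libraries (C-MYC) came from cells given the oncogene C-MYC in that vector. Bone marrow depleted of erythrocytes was cultured with interleukin-7 (IL-7) at 10 ng/ml and infected, dead cells were removed, and RNA was taken on days 7 to 9 after transduction. The marrow was not sorted for B cells, so the culture could hold other bone marrow cells. By the study's methods the replicates were duplicate experiments. No source used here says whether they came from separate mice, so p-values measure the spread between these samples only, which may be partly technical.

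BCR-ABL1 is a constitutively active tyrosine kinase that drives chronic myeloid leukemia and a high-risk form of B cell acute lymphoblastic leukemia (B-ALL). It acts through STAT5, through RAS and ERK, and through PI3K. B cell precursors in culture depend on IL-7, whose receptor signals through JAK kinases to STAT5, and on the pre-B cell receptor, which signals through SYK and SRC family kinases.

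Sequencing depth was similar, at 20687092 to 24095955 counts per library, and edgeR's common biological coefficient of variation was 0.151. Expression is given as CPM, counts scaled by TMM to a common library size, and differences as log2 fold changes, BCR-ABL1 minus EV, with their standard error (SE). A gene is said to have risen or fallen where edgeR's quasi-likelihood test gave a Benjamini-Hochberg adjusted p below 0.05 over the 12786 genes. Levels are not scaled by gene length, so they are compared between samples and not between genes. The human transgene is not a row of the count table. Mouse Abl1 was at 209 and 228 CPM in EV and at 269 and 248 in BCR-ABL1 (edgeR adjusted p = 0.168), and Bcr gave an adjusted p of 0.277 in the same edgeR test, so these rows did not check the labels. In the C-MYC libraries Myc stood at 1743 and 1233 CPM, against 181 and 137 in EV. Trp53bp1, the 53BP1 gene, was at 15.7 to 30.2 CPM in all 6 libraries. Counts per gene do not show which part of the Trp53bp1 transcript was read, so this row did not check the deletion.

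Markers of B cell precursors were abundant in every library. The summed CPM of 16 B lineage identity genes was 12707 and 11707 in EV and 11713 and 10741 in BCR-ABL1, and the ranges of the conditions overlapped. Ebf1, a transcription factor that specifies the B lineage, was at 527 and 575 CPM in EV and at 620 and 564 in BCR-ABL1, a log2 difference of 0.10 ± 0.13 (SE) that did not pass the test (edgeR adjusted p = 0.626). The conditions overlapped for it. The transcription factor gene Pax5 and the surrogate light chain genes Vpreb1 and Igll1 also missed the threshold, with log2 differences between -0.31 and 0.16, although Pax5 was called lower without EV replicate 1 (-0.58, edgeR adjusted p = 0.018). At an unadjusted edgeR p below 0.05, 5 of the 16 were lower and 0 higher, where 2358 and 1632 of all 12786 genes tested were. Over the other settings that kept all EV and BCR-ABL1 libraries, 1 to 5 were called lower and 0 higher. In the main fit none of the 16 rose, and 2 fell, where 5.08% and 12% of all genes did. The 2 were the signaling chain gene Cd79b and the transcription factor gene Spib. Neither was called without BCR-ABL1 replicate 2 (edgeR adjusted p of 0.302 and 0.053), and Cd79b was not without BCR-ABL1 replicate 1 or EV replicate 1 (edgeR adjusted p of 0.0792 and 0.101).

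Markers of other bone marrow cells were lower in BCR-ABL1 across nearly all lists. Of 134 markers of 9 non-B cell types in the table, 99 passed the low-count filter, 91 fell and 0 rose. Of all genes tested, 5.08% rose and 12% fell. The summed CPM of the 134 markers was 3747 and 3709 in EV and 495 and 603 in BCR-ABL1. The C-MYC libraries lay between them, at 983 and 1643, of which the macrophage list alone gave 879 and 1502. These C-MYC sums therefore do not show an intermediate level for the other lists. The median log2 difference over the 99 markers was -3.76, against 0.00 over all genes tested. In bulk RNA, fewer cells of a type and less RNA per cell cannot be told apart.

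**Figure D1:**
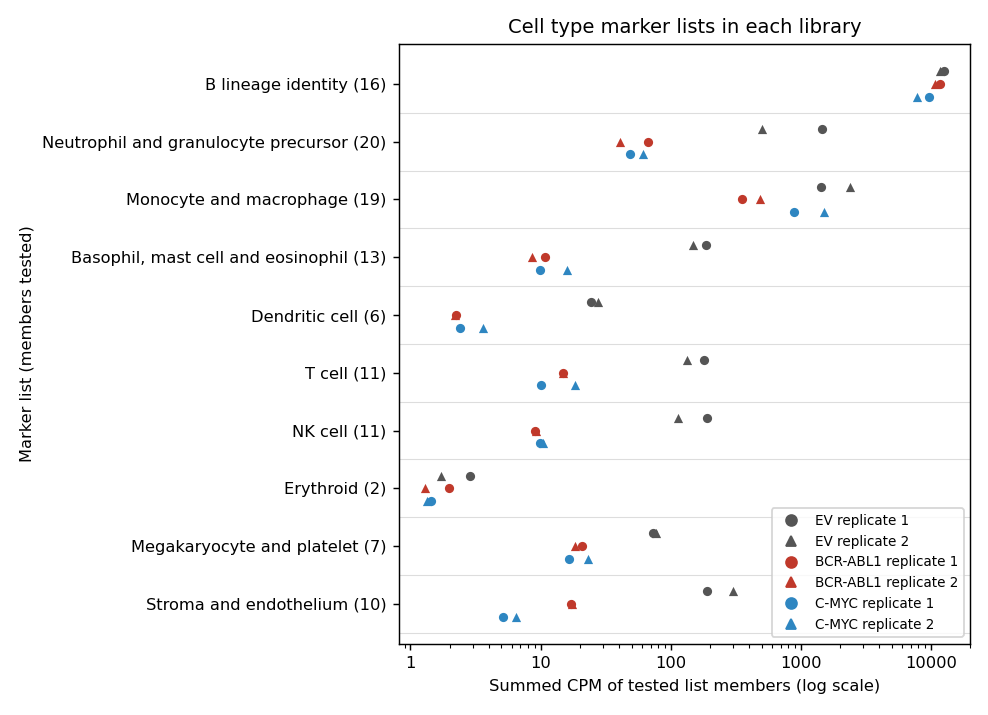
Summed CPM of the members of the B lineage identity list and of 9 non-B cell lists in each of the 6 RNA-seq libraries (horizontal log axis). Despite the axis label, the sums hold all members in the count table, and the number tested is in parentheses. B lineage sums lay between 7797 and 12707 in all libraries, whereas BCR-ABL1 libraries were below both EV libraries in every non-B cell list except the erythroid list.

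All 20 neutrophil and granulocyte precursor markers fell. Their summed CPM was 1461 and 504 in EV and 67.4 and 41.1 in BCR-ABL1, and EV replicate 1 was the higher EV library. Ngp, a neutrophil granule gene, was at 364 and 107 CPM in EV and at 14.3 and 9.81 in BCR-ABL1, and the calprotectin gene S100a9 was at 314 and 109 against 12.6 and 8.06. The spread within EV for these genes was wide, and the conditions still did not overlap. Of the 20 markers, 1 differed between BCR-ABL1 and C-MYC in the direct test, and none of the basophil, T cell or dendritic cell markers did. Over all genes tested, 23.4% differed in that test.

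All 13 basophil, mast cell and eosinophil markers, all 11 T cell markers and all 11 natural killer (NK) cell markers fell. The basophil protease gene Mcpt8 was at 23.2 and 23.3 CPM in EV and at 0.711 and 0.415 in BCR-ABL1. Cd8a, a T cell co-receptor gene, was at 47.8 and 31.7 against 3.03 and 2.24, and Gzmb, a granzyme of cytotoxic lymphocytes, was at 32.5 and 15.8 against 0.379 and 0.582. These named markers remained detectable at low levels in BCR-ABL1. Of the stroma and endothelium markers 8 of 10 fell, with the collagen gene Col1a1 at 52.0 and 76.1 CPM in EV and at 2.84 and 3.12 in BCR-ABL1. Among dendritic cell markers 5 of 6 fell and among megakaryocyte markers 5 of 7. Itgax, the integrin of dendritic cells, was at 17.0 and 15.3 CPM against 0.901 and 0.873, and Pf4, a platelet chemokine, at 28.8 and 40.0 against 6.49 and 6.27. Only 2 of 13 erythroid genes passed the filter, and the Hbb and Hba globin genes were at 0 counts in EV and BCR-ABL1. Of these 2, the heme synthesis gene Alas2 did not pass the test (edgeR adjusted p = 0.642).

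Most macrophage markers fell, and their level in BCR-ABL1 stayed measurable. Of 19 tested, 17 fell, and the 20 markers in the count table summed to 1438 and 2405 CPM in EV against 351 and 489 in BCR-ABL1. The C-MYC sums were 879 and 1502. Lyz2, encoding lysozyme, was at 496 and 690 CPM in EV and at 97.4 and 123 in BCR-ABL1, and Apoe was at 177 and 497 against 21.7 and 36.0. Gpnmb, a transmembrane glycoprotein of macrophages, did not pass the test and overlapped, with 238 and 423 CPM in EV against 168 and 251 in BCR-ABL1. Mertk, at 78 and 275 counts in EV and 24 and 62 in BCR-ABL1, was the other marker without a call. In the direct comparison, 11 of the 19 were lower in BCR-ABL1 than in C-MYC and none was higher, where 11.5% and 11.9% of all genes were.

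Without either BCR-ABL1 library the count of falling markers was lower, at 14 to 18 of 20 neutrophil, 13 to 14 of 19 macrophage, 8 of 11 T cell and 8 of 11 NK cell markers. Among the markers named above, no call was lost. Of others with the highest levels in their list, the transcription factor genes Batf3 and Gata1, the co-stimulator gene Cd28, the integrin gene Itgb3 and the lectin gene Clec10a were no longer called without BCR-ABL1 replicate 1, with edgeR adjusted p between 0.0585 and 0.179. Batf3, Gata1, Cd28 and Itgb3 were also lost without BCR-ABL1 replicate 2 (edgeR adjusted p of 0.117 to 0.243). Gata1 was lost without EV replicate 1 and Batf3 without EV replicate 2 as well (edgeR adjusted p of 0.0668 and 0.0749).

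Over all genes, 650 rose and 1530 fell, together 17% of those tested, and the libraries of the conditions did not overlap for any of them. Non-overlap alone was common, at 29.2% of genes higher and 29.7% lower in BCR-ABL1. The changes were unequal in size. The median log2 change was 0.61 among genes that rose and -2.19 among genes that fell, and 1265 genes fell but 181 rose by more than 1 on the log2 scale. Of the 91 falling markers of non-B cells, 83 fell by more than 2. When a library is left out, a call can be lost through a changed difference or a changed estimate of spread. These were not separated. Leaving out BCR-ABL1 replicate 1 or 2 gave Paics log2 differences of 0.42 and 0.45, against 0.43 with all libraries. For Cd79b they were -0.74 and -0.43, against -0.58. Spread between replicates was wider in EV than in BCR-ABL1. The count of calls fell when either BCR-ABL1 library was left out. Without replicate 1 or without replicate 2, 118 to 128 genes were called higher and 547 to 586 lower. Without an EV library, 901 to 1000 were called higher and 1729 to 1799 lower.

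**Figure D2:**
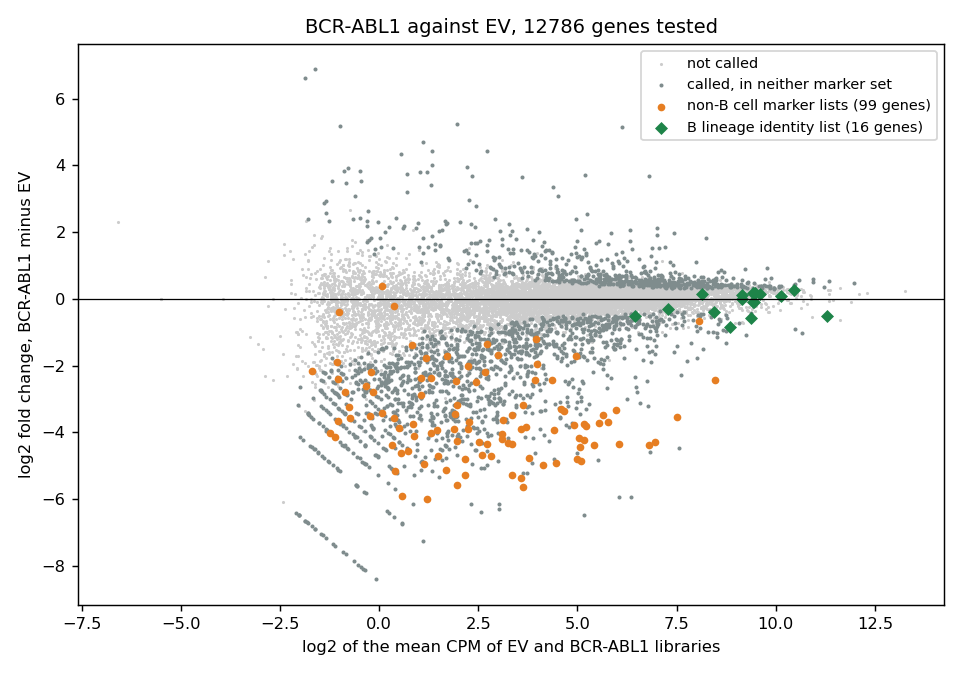
Log2 fold change, BCR-ABL1 minus EV, against the log2 of the mean CPM of the 4 libraries for 12786 genes, with called genes in dark grey, 99 markers of non-B cells in orange and 16 B lineage identity genes as green diamonds. Markers of non-B cells lay between -5.98 and 0.40 with a median of -3.76, and B lineage identity genes lay between -0.84 and 0.28 at high expression. Diagonal rows of points at the lower left are genes with 0 or few counts in BCR-ABL1, whose fitted size depends on the prior count.

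The falls were divided by size to set the markers apart from smaller changes. Among 265 genes that fell by less than 1 on the log2 scale, 0 were markers of non-B cells and 35 were on a B lineage or pathway list. Among 429 that fell by 1 to 2, 8 were such markers, and among 349 that fell by 2 to 3, 13 were. Among 487 that fell by more than 3, 70 were markers and 20 were on a B lineage or pathway list. Of the 1530 falling genes, 609 were at or below 1 CPM in both BCR-ABL1 libraries. The markers fell together with many genes of other lists, and their part in the falls on any other list was not tested.

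The 12 genes that fell most outside the marker lists included chemokine, enzyme and MHC genes. Ccl22, a chemokine of dendritic cells and macrophages, was at 119 and 23.1 CPM in EV and at 0.474 and 1.08 in BCR-ABL1. H2-Aa and H2-Eb1, the chains of major histocompatibility complex (MHC) class II molecules, were at 177 and 142 and at 143 and 119 CPM in EV, against 2.80 and 2.41 and 1.80 and 2.41 in BCR-ABL1. Hdc, the enzyme that makes histamine, was at 39.0 and 13.0 against 1.09 and 0.332. Each of these genes had higher values in both EV libraries than in any BCR-ABL1 library, which the rule for naming the 12 required. Plbd1, the actin bundler Fscn1, the arginase gene Arg1, the granzyme gene Gzmc, the lectin gene Mgl2, coagulation factor F10, the receptor gene Cd226 and Apol7c completed the 12. Mgl2 had 3 counts in each BCR-ABL1 library, and F10 and Apol7c had 4 and 2, so no fold change is given for them. Of the 12 genes, 8 did not differ between BCR-ABL1 and C-MYC by the threshold, and 4 were lower in BCR-ABL1. Over all genes tested, 11.5% were lower in that comparison. The 4 included Arg1, at 5.61 and 7.86 CPM in C-MYC against 0.379 and 0.291. The call of Gzmc was lost without BCR-ABL1 replicate 2 (edgeR adjusted p = 0.0542).

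Genes with the largest rises were low in EV and were on none of the lists. Cdh17, the liver-intestine cadherin, was at 22.9 and 9.53 CPM in EV and at 209 and 204 in BCR-ABL1, a log2 change of 3.68 ± 0.35 (SE). Tmem119, a transmembrane protein known as a marker of microglia, was at 5.47 and 2.13 against 149 and 120, a change of 5.16 ± 0.50 (SE). Cdhr2, a cadherin of intestinal microvilli, was at 3.74 and 6.48 against 74.8 and 61.4. For these genes both BCR-ABL1 libraries stood far above both EV libraries, where the rule for naming the 12 itself required no overlap. Rnase12, a member of the ribonuclease A family, was at 2.15 and 1.42 CPM against 22.3 and 22.8. Rgs8, a regulator of G protein signaling, was at 0.140 and 0.251 CPM against 6.64 and 8.64. Its fitted rise was the largest of the 12, at 5.23 ± 0.47 (SE), but rested on 3 and 6 counts in EV. The glutamate receptor gene Gria2, the uroplakin gene Upk1b, the transcription factor genes Tcf7l1 and En2, Clic6, Tmem121 and the water channel gene Aqp1 completed the 12, with log2 changes between 3.42 and 4.43. EV counts were 3 and 7 for Gria2, 4 and 10 for En2, 7 and 6 for Tmem121 and 7 and 12 for Aqp1. The sizes of these rises and of that of Rgs8 are therefore uncertain. Only 49 of the 650 rising genes were at or below 1 CPM in both EV libraries. All 12 were also higher in BCR-ABL1 than in C-MYC in the direct test, which uses the same BCR-ABL1 libraries. Over all genes tested, 11.9% were higher in that test. The difference from C-MYC was 6.46 ± 0.55 (SE) for Tmem119, 7.14 ± 0.34 (SE) for Cdhr2 and 4.59 ± 0.37 (SE) for Cdh17 on the log2 scale. Calls of 11 of the 12 held when any single library was left out. That of Aqp1 was lost without BCR-ABL1 replicate 2 (edgeR adjusted p = 0.053).

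**Figure D3:**
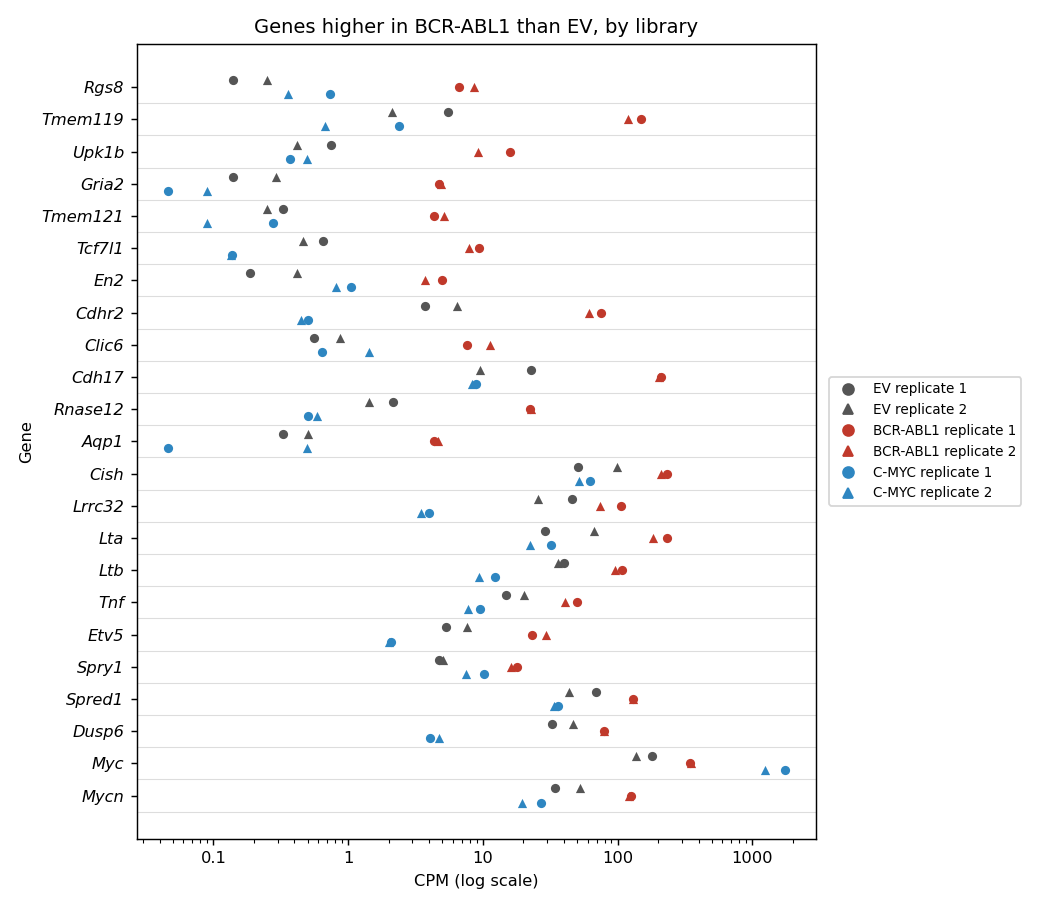
CPM (log axis) of the 12 largest rises and of cytokine signaling, ERK feedback and MYC genes in each of the 6 RNA-seq libraries. Both BCR-ABL1 libraries lay above both EV libraries for every gene shown, as they did for all genes called higher. C-MYC libraries exceeded the BCR-ABL1 libraries for Myc only.

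Targets of STAT5 did not move in 1 direction. Of 20 tested, 2 rose and 6 fell, where 5.08% and 12% of all genes did. Cish, a feedback inhibitor of cytokine receptors that STAT5 induces, was at 50.5 and 99.0 CPM in EV and at 233 and 211 in BCR-ABL1, a rise of 1.57 ± 0.28 (SE) on the log2 scale (edgeR adjusted p = 0.00892). Lrrc32, which encodes the TGF-beta docking receptor GARP, was at 45.7 and 25.5 against 106 and 74.0. Neither gene overlapped between the conditions. The further STAT5 targets Socs2 and Pim1 did not pass the test, with log2 differences of 0.36 ± 0.12 and 0.29 ± 0.30 (SE), and EV replicate 2 held the highest Pim1 level of the 4 libraries, at 586 CPM. Without that library Pim1 differed by 0.96 on the log2 scale, and without EV replicate 1 by -0.16. The falling targets included Il2ra, the IL-2 receptor alpha chain CD25, at 110 and 92.4 CPM in EV against 56.9 and 52.2. Bcl2l1, which encodes the survival factor BCL-XL, fell from 133 and 206 CPM to 83.9 and 61.5. The differentiation inhibitor gene Id2 fell from 31.5 and 30.8 to 5.36 and 6.44 CPM. Markers of non-B cells fell as well, and their part in the fall of Id2 was not tested. Stat5a and Stat5b differed by -0.11 and -0.08 on the log2 scale, both short of the threshold. The call of Lrrc32 was lost without BCR-ABL1 replicate 1 (edgeR adjusted p = 0.107), and those of Il2ra and Bcl2l1 without replicate 2 (edgeR adjusted p of 0.0642 and 0.0788).

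Il7r, the IL-7 receptor alpha chain, fell in the presence of the same IL-7 dose. It was at 184 and 131 CPM in EV and at 46.6 and 42.8 in BCR-ABL1, a change of -1.82 ± 0.17 (SE), with both BCR-ABL1 libraries far below EV (edgeR adjusted p = 0.00091). In C-MYC it was at 50.8 and 52.4 CPM, and the direct difference from BCR-ABL1 did not pass the test (edgeR adjusted p = 0.412). Of 13 genes for the IL-7 receptor, JAK kinases and STAT factors, 2 fell, Il7r among them, and 0 rose. Over all genes 12% fell and 5.08% rose, so the share of falls on this list was near that of all genes. Jak2 and Stat2 missed the threshold, with log2 differences of -0.40 and -0.77.

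Promoters of Cish, Lta and Il7r are shown because the motif TTCNNNGAA, the palindrome that STAT factors bind, can be read in them. Lta was on the lymphotoxin list and not among the STAT5 targets. Sequences are from RefSeq on GRCm38.p6, from 250 bases before to 50 after a gene's annotated start, in the direction of transcription, and capitals mark each match. The Cish window lies at chr9:107296409-107296708 on the plus strand and holds 2 matches. The Lta window lies at chr17:35205302-35205601 on the minus strand with 2 matches, and the Il7r window at chr15:9529827-9530126 on the minus strand with 1. The GENCODE vM21 annotation places the outermost start of Cish at 107296026 and of Il7r at 9530176, both upstream of the window shown.
Cish: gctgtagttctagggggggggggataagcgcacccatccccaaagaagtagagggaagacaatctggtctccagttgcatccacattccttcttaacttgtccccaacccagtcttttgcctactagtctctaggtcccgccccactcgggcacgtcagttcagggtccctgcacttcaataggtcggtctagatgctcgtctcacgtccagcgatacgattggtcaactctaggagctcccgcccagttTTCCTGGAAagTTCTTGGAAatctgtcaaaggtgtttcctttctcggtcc
Lta: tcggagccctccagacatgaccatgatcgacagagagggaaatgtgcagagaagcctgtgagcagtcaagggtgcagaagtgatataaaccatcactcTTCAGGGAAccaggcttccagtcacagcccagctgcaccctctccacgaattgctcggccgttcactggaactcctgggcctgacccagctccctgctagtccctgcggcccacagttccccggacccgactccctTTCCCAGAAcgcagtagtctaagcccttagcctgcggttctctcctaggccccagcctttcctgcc
Il7r: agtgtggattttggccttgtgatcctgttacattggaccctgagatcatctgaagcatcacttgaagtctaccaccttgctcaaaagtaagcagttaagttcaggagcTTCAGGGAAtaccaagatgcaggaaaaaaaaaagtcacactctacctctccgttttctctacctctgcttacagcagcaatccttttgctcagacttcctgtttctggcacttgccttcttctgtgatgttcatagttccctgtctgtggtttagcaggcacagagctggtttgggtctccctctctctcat

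The motif was also present among promoters in general. A promoter was found for 9714 of the 12786 genes, and 8.47% of these genes held TTCNNNGAA in at least 1 window, on either strand since the motif is its own reverse complement. The share was 7.01% of 499 genes that rose and 10.1% of 1143 that fell. Of 13 STAT5 targets with a promoter, 4 held it. A match describes the letters of a window and is not a measured binding site.

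Several feedback regulators of the ERK pathway rose. Of 18 targets tested, 6 rose, 3 fell and 9 were not called, against 5.08% higher and 12% lower of all genes, and without a BCR-ABL1 library 2 to 3 were called higher. Etv5, an ETS transcription factor induced by ERK, was at 5.33 and 7.65 CPM in EV and at 23.2 and 29.3 in BCR-ABL1, a rise of 2.01 ± 0.23 (SE). Spry1, a Sprouty inhibitor of RAS signaling, was at 4.72 and 5.10 against 17.8 and 16.2, and Spred1, a related inhibitor, at 69.4 and 43.2 against 130 and 130. Both BCR-ABL1 libraries were above both EV libraries for each of these. Dusp6, the phosphatase that switches off ERK, was at 32.5 and 46.4 CPM against 78.9 and 79.2, and Spred2 and Etv1 completed the 6 rising genes. Dusp6, Spred2 and Etv1 were named after their values were seen. In C-MYC, Dusp6 was at 4.04 and 4.71 CPM and Etv5 at 2.07 and 2.02, and both were higher in BCR-ABL1 than in C-MYC by 4.17 ± 0.21 and 3.68 ± 0.26 (SE) on the log2 scale. The falling members of the list were the stress-induced phosphatase genes Dusp1 and Dusp8 and the early response gene Ier3, at 4.49 and 8.99 CPM in EV against 0.521 and 0.582. When a single library was left out, calls of Etv5, Spry1 and Ier3 held. Spred1 was lost without BCR-ABL1 replicate 2 (edgeR adjusted p = 0.0502), Dusp6 without either BCR-ABL1 library (edgeR adjusted p of 0.0614 and 0.0638), and Spred2 likewise (edgeR adjusted p of 0.135 and 0.193). Etv1 was at 0.502 to 1.83 CPM in EV and BCR-ABL1 and was lost without any of the 4 libraries (edgeR adjusted p of 0.0729 to 0.345). Dusp1 and Dusp8 were lost without either BCR-ABL1 library or EV replicate 2 (edgeR adjusted p of 0.0596 to 0.208). Of 20 immediate early transcription factors 0 rose and 6 fell, among them Fosl2, at 18.5 and 19.4 CPM in EV against 2.13 and 2.74, Klf4 at 24.1 and 21.4 against 6.87 and 8.31, and Egr2 at 4.81 and 9.03 against 0.853 and 0.415. Atf3, a stress-induced factor, fell by 2.01 ± 0.27 (SE). Markers of non-B cells fell with these genes, and their part in the falls was not tested.

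Lymphotoxin and tumor necrosis factor (TNF) genes rose while other genes of the family fell. Lta, lymphotoxin alpha, was at 29.0 and 66.3 CPM in EV and at 232 and 184 in BCR-ABL1, a rise of 2.12 ± 0.36 (SE). Ltb, its membrane-bound partner, was at 39.7 and 36.4 against 108 and 94.9, and Tnf at 14.9 and 20.1 against 49.8 and 40.9. All BCR-ABL1 values of these neighbouring genes on chromosome 17 lay above the EV values, and these 3 calls held without any single library. They were also higher than in C-MYC, by 2.94 ± 0.37 (SE) for Lta, 3.23 ± 0.18 (SE) for Ltb and 2.40 ± 0.21 (SE) for Tnf. Of 14 family members tested, these 3 rose and 8 fell, where 5.08% and 12% of all genes did. Tnfrsf1a, the main TNF receptor, was at 17.4 and 14.5 CPM in EV against 1.75 and 2.04, and Ltbr, the lymphotoxin receptor, at 3.97 and 5.22 against 0.901 and 1.04. Of 20 NF-kB subunits and targets, 10 fell and 0 rose, against the same 12% and 5.08% of all genes. The falls were led by the adaptor gene Traf1, the chemokine genes Ccl3 and Ccl4 and the activation marker gene Cd83, with log2 changes of -2.85 to -4.53. Myeloid markers fell with these receptors and chemokines, at a summed 3747 and 3709 CPM of all non-B cell markers in EV against 495 and 603, and their part was not tested.

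Myc, which encodes the growth-promoting transcription factor, rose in BCR-ABL1. It was at 181 and 137 CPM in EV and at 343 and 348 in BCR-ABL1, a rise of 1.12 ± 0.19 (SE), or 2.18-fold (edgeR adjusted p = 0.00681). Its relative Mycn was at 34.6 and 52.5 CPM against 125 and 122, a rise of 1.50 ± 0.22 (SE), and was higher than in C-MYC, at 27.0 and 19.5 CPM. Both calls held without any single library. The antagonist genes Mxd1 and Mxd4 fell, at 71.4 and 35.9 against 27.1 and 24.3 CPM and at 48.4 and 57.6 against 36.2 and 36.8. Their calls were lost without either BCR-ABL1 library (edgeR adjusted p of 0.147 to 0.23) and without EV replicate 1 for Mxd1 and replicate 2 for Mxd4 (edgeR adjusted p of 0.0573 and 0.0691). The remaining 8 of 12 genes of the network were not called.

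Some genes of ribosome assembly and nucleotide synthesis rose, by small amounts. Over all genes, 5.08% rose and 12% fell. Of 36 genes for ribosome biogenesis and RNA polymerase I, 8 rose and 0 fell, with a median log2 difference of 0.33. Npm1, encoding the nucleolar protein nucleophosmin, was at 1428 and 1693 CPM in EV and at 2261 and 2415 in BCR-ABL1, a rise of 0.58 ± 0.11 (SE), and Ncl, nucleolin, was at 1902 and 2319 against 2999 and 3140. Of 30 genes for nucleotides and one-carbon units, 13 rose and 0 fell, with a median of 0.39. Ppat, the first committed enzyme of purine synthesis, was at 95.0 and 103 CPM against 135 and 155, Paics at 370 and 348 against 490 and 478, and Gmps, which makes GMP, at 139 and 127 against 177 and 187. These values did not overlap between the conditions, and the named rises lay between 0.43 and 0.58 on the log2 scale. The call of Npm1 was lost without BCR-ABL1 replicate 2 (edgeR adjusted p = 0.0838), and those of Ncl, Ppat, Paics and Gmps without either BCR-ABL1 library (edgeR adjusted p of 0.0514 to 0.207).

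These counts depended on the libraries. Without either BCR-ABL1 library 0 to 1 of the 36 ribosome biogenesis genes and 0 of the 30 nucleotide genes were called, and without an EV library 7 to 19 and 8 to 19 were. Over the other settings tried, 0 to 21 and 0 to 18 were called. In C-MYC the levels were higher, with Npm1 at 4735 and 4615 CPM. In the direct test, all 36 ribosome biogenesis genes and 19 of 30 nucleotide genes were lower in BCR-ABL1 than in C-MYC. Over all genes tested, 11.5% were lower in that test. The E-box CACGTG, which MYC proteins bind, was in the promoter window of 11.7% of 9714 genes, of 14.4% of genes that rose and of 7.09% of genes that fell, and of 7 of 31 ribosome biogenesis and 5 of 27 nucleotide synthesis genes.

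Other growth and cell cycle lists held few called genes in the fit without a replicate block, where 5.08% of all genes rose and 12% fell. None of 20 aminoacyl-tRNA synthetases and none of 28 mitosis genes was called in either direction, and their median log2 differences were 0.15 and 0.11. The lowest p-values on these lists belonged to Dars, the aspartate enzyme, at 116 and 146 CPM in EV against 170 and 187 (edgeR adjusted p = 0.0637), and to the mitotic cyclin gene Ccnb1, at 165 and 190 against 218 and 231 (edgeR adjusted p = 0.0693). At an unadjusted edgeR p below 0.05, 5 of the synthetases and 2 of the mitosis genes were higher and 0 lower. By DESeq2 3 and 2 were called higher and 0 lower. Of all 12786 genes, 1632 were higher and 2358 lower at that unadjusted p. DESeq2 called 967 higher and 1517 lower of 13342. Of 34 DNA replication genes 2 rose, Orc1 and Mcm4, with a median over the list of 0.27. With a replicate block 13 were called higher, where 1221 of all 12786 genes were, and by DESeq2 8 were. Orc1, a subunit of the origin recognition complex, was at 31.6 and 26.2 CPM in EV against 48.1 and 49.3. Of 26 genes of the G1 phase, Cdk4 rose from 331 and 355 to 476 and 450 CPM, Cdkn2a, which encodes the p16 and ARF tumor suppressors, was at 47.2 and 37.9 against 60.3 and 59.7, and E2f2 fell from 270 and 378 to 173 and 196. Among 25 genes of DNA damage signaling, 1 rose, the helicase gene Blm. The serine synthesis genes Phgdh and Psat1 and the amino acid transporter genes Slc7a5 and Slc38a2 were the rising members of 20 ATF4 response genes, and the glycine transporter gene Slc6a9 fell. Phgdh was at 281 and 278 CPM in EV and 399 and 408 in BCR-ABL1. Of 27 lipid synthesis genes 2 rose, among them Acaca, which makes malonyl-CoA, and of 28 glycolysis genes Pfkm and the lactate transporter gene Slc16a1 rose and Hk1, Hk3 and Slc16a3 fell. The calls of Hk3 and Slc16a3 held without any single library. All other genes said to have risen or fallen in these lists lost their call without either BCR-ABL1 library (edgeR adjusted p of 0.06 to 0.303). Several also lost it without EV replicate 1 (Cdk4, Psat1, Slc38a2, Slc16a1, Pfkm and Hk1, edgeR adjusted p of 0.055 to 0.0871) or EV replicate 2 (Mcm4, Cdkn2a, Blm and Slc7a5, edgeR adjusted p of 0.0772 to 0.0866).

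**Figure D4:**
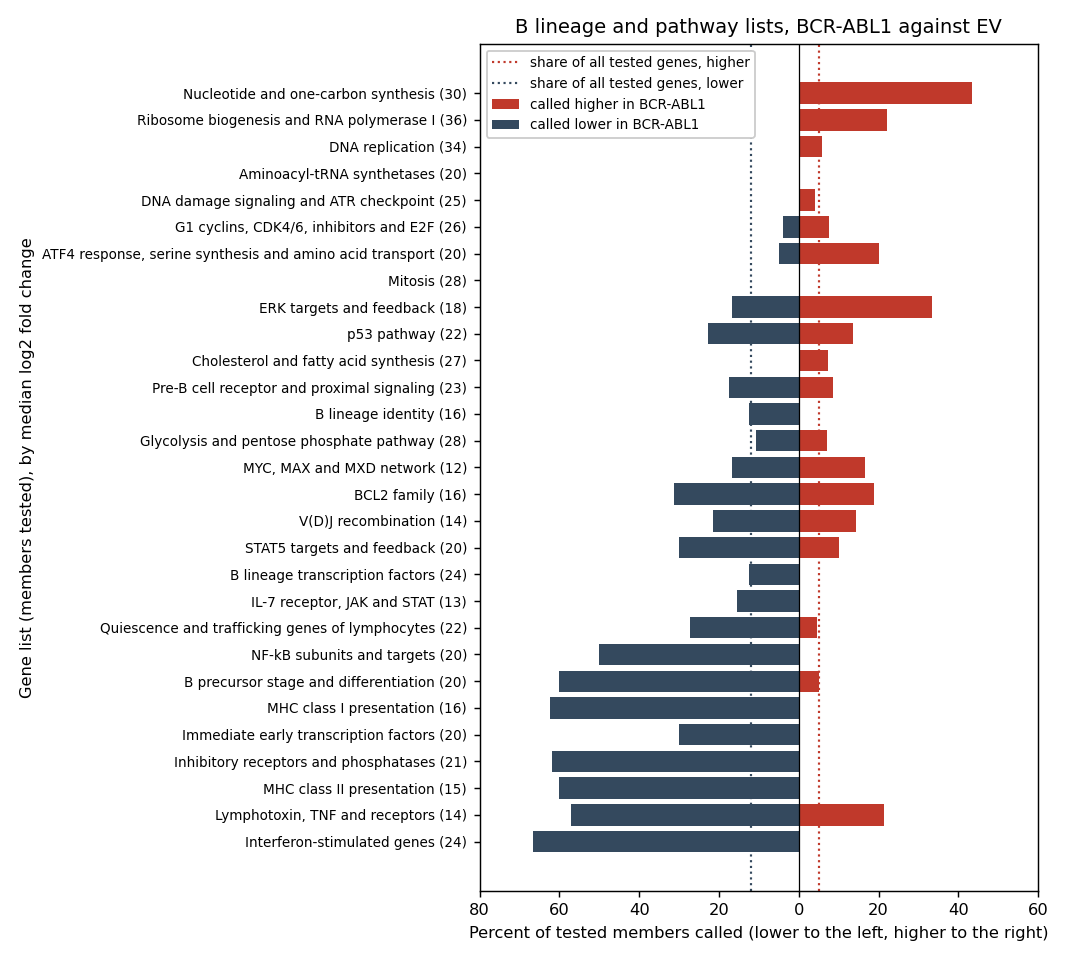
Percent of the tested members of each B lineage and pathway list that rose (red, to the right) or fell (dark, to the left) in BCR-ABL1, ordered by the list's median log2 fold change, with dotted lines at the shares of all genes tested, 5.08% higher and 12% lower. Nucleotide synthesis (13 of 30) and ERK targets (6 of 18) had the highest shares of rising genes, and interferon-stimulated genes (16 of 24) the highest share of falling genes.

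Genes that control cell death moved in both directions. Bok, a BAX-like effector, was at 3.88 and 2.84 CPM in EV and at 17.3 and 14.7 in BCR-ABL1, a rise of 2.25 ± 0.30 (SE). The pro-apoptotic genes Bcl2l11, which encodes BIM, and Bax rose less, from 147 and 107 to 224 and 183 CPM and from 111 and 121 to 145 and 160. Bmf, another pro-apoptotic gene, fell from 132 and 58.4 to 42.9 and 34.0. The survival genes of the A1 family fell, with Bcl2a1b at 9.16 and 11.9 against 1.23 and 1.45 CPM and Bcl2a1d at 4.07 and 2.72 against 0.284 and 0.208. Bcl2a1a had 29 and 40 counts in EV and 0 and 2 in BCR-ABL1. The A1 genes are near-identical copies whose reads may have been divided between them, so their separate values are uncertain. All 20 neutrophil and all 13 basophil, mast cell and eosinophil markers fell as well, and their part in the A1 falls was not tested. Of 22 p53 pathway genes, 3 rose, Zmat3, Bax and Cdkn2a, and 5 fell, Plk2, Plk3, Btg2, Gadd45a and Gadd45g, where 5.08% and 12% of all genes did. Zmat3, an RNA-binding protein that p53 induces, was at 34.1 and 48.0 CPM against 81.6 and 75.1. Calls of Bok, Plk2 and Plk3 held without any single library, and those of the other genes named in this paragraph were lost without at least 1 BCR-ABL1 library (edgeR adjusted p of 0.0524 to 0.336). Bax was also lost without EV replicate 1, and Bcl2l11, Cdkn2a and Gadd45g without EV replicate 2 (edgeR adjusted p of 0.0532 to 0.0848).

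Few genes of the pre-B cell receptor pathway passed the test, and their changes were mostly small. Of 23 genes, 17 were not called, 4 fell and 2 rose, where 12% of all genes fell and 5.08% rose. Cd79b, the Ig-beta signaling chain, was at 855 and 733 against 591 and 473. Blk, a SRC family kinase gene, was at 390 and 390 against 281 and 256, and Syk, the kinase gene downstream, at 768 and 761 against 611 and 525. Pik3ap1, the adaptor BCAP, fell from 257 and 207 to 139 and 113. These 4 falls lay between -0.43 and -0.88 on the log2 scale and showed no overlap. Bank1, a B cell scaffold gene, rose from 5.56 and 7.90 to 22.0 and 23.8 CPM, and the kinase gene Fyn from 125 and 107 to 170 and 176. Without BCR-ABL1 replicate 2, Cd79b, Blk, Syk, Pik3ap1 and Fyn were not called (edgeR adjusted p of 0.117 to 0.302), and Cd79b, Blk, Syk and Fyn were not without replicate 1 (edgeR adjusted p of 0.0713 to 0.1). Cd79b was lost without EV replicate 1 (edgeR adjusted p = 0.101) and Syk without either EV library (edgeR adjusted p of 0.0579 and 0.051). That of Bank1 held in each case. Of 24 B lineage transcription factors, 3 fell, Spib, Id2 and Irf8, and 0 rose, a share of falls near the 12% of all genes. Spib, which acts in B cells and plasmacytoid dendritic cells, was at 576 and 612 CPM in EV and at 339 and 323 in BCR-ABL1, a change of -0.84 ± 0.13 (SE), without a call when BCR-ABL1 replicate 2 was left out (edgeR adjusted p = 0.053). Irf8, which both B cells and macrophages express, was at 698 and 432 CPM in EV and at 297 and 287 in BCR-ABL1, and its call was lost without BCR-ABL1 replicate 1 or 2 (edgeR adjusted p of 0.102 and 0.13).

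Surface markers of B precursor stages fell in larger number. Of 20 tested, 12 fell and 1 rose, where 12% and 5.08% of all genes did. Cd72, an inhibitory co-receptor of B cells, was at 82.5 and 97.6 CPM in EV and at 33.5 and 30.8 in BCR-ABL1, a change of -1.49 ± 0.13 (SE), and Cd22, a further inhibitory co-receptor, at 32.8 and 37.5 against 12.4 and 14.7. Both were also lower than in C-MYC, where Cd72 was at 70.3 and 74.3 CPM and Cd22 at 26.5 and 24.6. Cd2, an adhesion molecule of lymphocytes and of late B cell precursors, rose from 19.7 and 23.2 to 79.7 and 62.6 CPM, and was at 2.34 and 2.42 in C-MYC. Kit, the stem cell factor receptor, was at 69.2 and 32.9 against 10.0 and 6.32 CPM. Cd34, a marker of stem and progenitor cells, had 54 and 55 counts in EV and 1 and 2 in BCR-ABL1. Kit also marks mast cells, whose 13 list members all fell, and its source in EV was not examined. Calls of Cd72, Cd22, Cd2, Kit and Cd34 held without any single library.

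Few recombination genes passed the test, and they moved in both directions. Rag1, a subunit of the V(D)J recombinase, was at 71.1 and 58.9 CPM in EV and at 37.3 and 38.9 in BCR-ABL1, a change of -0.77 ± 0.17 (SE), whereas Rag2, its partner, was at 14.0 and 11.2 against 13.1 and 11.3 and did not pass the test (edgeR adjusted p = 0.916). In C-MYC, Rag1 was at 5.98 and 8.22 CPM and Rag2 at 3.22 and 3.95, both below BCR-ABL1 in the direct test. Of 14 recombination genes, Dntt and the Ku subunit gene Xrcc5 rose, and Rag1, the other Ku subunit gene Xrcc6 and the polymerase gene Polm fell. Over all genes tested, 5.08% rose and 12% fell. Dntt, the polymerase that adds bases at V(D)J junctions, was at 382 and 440 CPM in EV and at 529 and 535 in BCR-ABL1. Polm was at 19.6 and 21.5 CPM against 5.40 and 4.61. The call of Polm held without any single library, and those of Rag1, Dntt, Xrcc5 and Xrcc6 were lost without either BCR-ABL1 library (edgeR adjusted p of 0.0845 to 0.246). Dntt was also lost without EV replicate 1 (edgeR adjusted p = 0.0981).

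**Figure D5:**
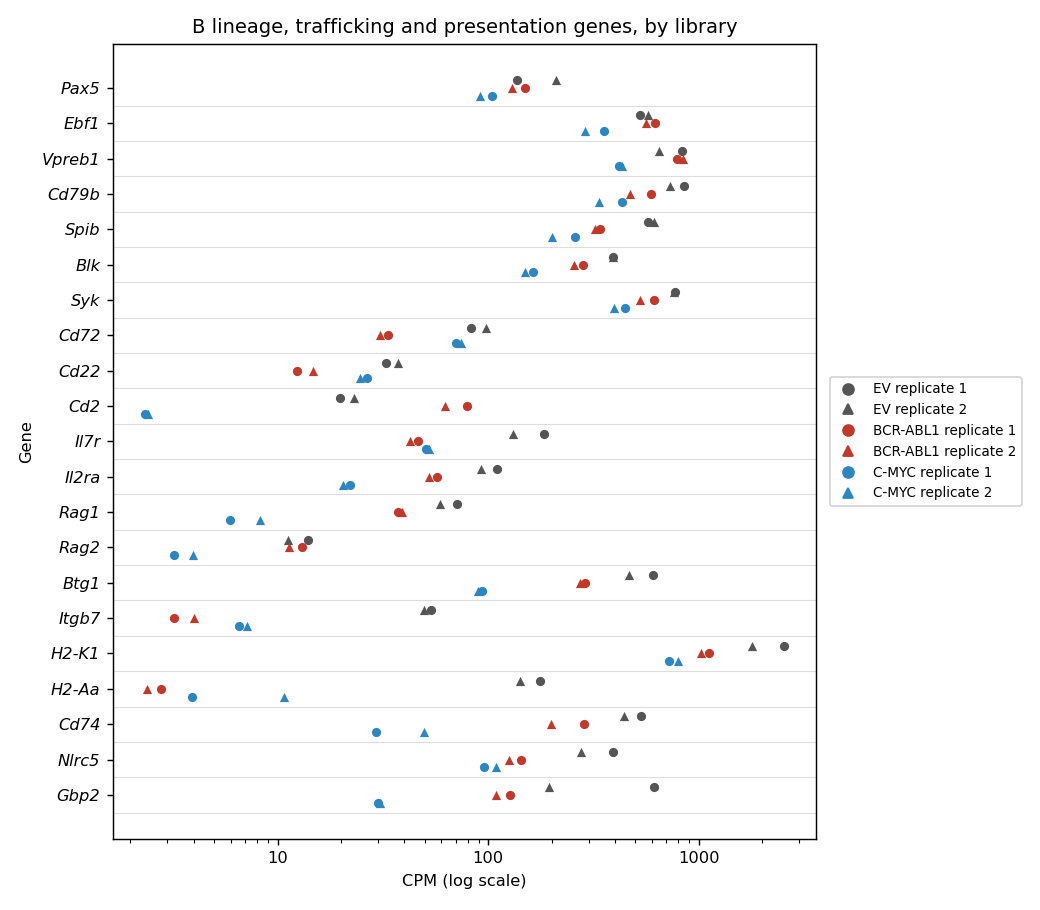
CPM (log axis) of B lineage, recombination, trafficking and antigen presentation genes in each of the 6 RNA-seq libraries. Ebf1, Vpreb1 and Rag2 had similar values in EV and BCR-ABL1, Cd2 rose, and Il7r, Itgb7 and H2-Aa were lower in both BCR-ABL1 libraries than in both EV libraries.

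Homing and quiescence genes included large falls. Itgb7, the integrin beta-7 chain used in homing to the gut, was at 53.6 and 49.4 CPM in EV and at 3.22 and 4.03 in BCR-ABL1, a change of -3.82 ± 0.18 (SE). Btg1, an antiproliferative gene, was at 604 and 468 against 288 and 272. The BCR-ABL1 libraries were below both EV libraries for both of these, and the calls held without any single library. Of 22 genes on the list, 6 fell and 1 rose, where 12% and 5.08% of all genes did. The rising gene was the chemokine receptor gene Cxcr5, whose call was lost without BCR-ABL1 replicate 1 or 2 or EV replicate 1. Itgb7 is also expressed by myeloid and T cells.

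Inhibitory receptors and phosphatases fell in 13 of 21 members, and 0 rose, where 12% of all genes fell and 5.08% rose. Besides Cd72 and Cd22, the lowest p-values belonged to Pilra and Cd300lf, receptors of myeloid cells, at 5.10 and 7.27 CPM in EV against 0.332 and 0.249 and at 16.9 and 11.7 against 1.14 and 1.29. The phosphatase genes Ptpn6, which encodes SHP-1, and Inpp5d, which encodes SHIP1, were named after their values were seen, and had no call. Ptpn6 was at 186 and 141 CPM in EV and 143 and 137 in BCR-ABL1. Inpp5d was at 637 and 530 against 615 and 549, and the conditions overlapped. Both were higher in BCR-ABL1 than in C-MYC, by 1.09 ± 0.16 and 0.54 ± 0.14 (SE) on the log2 scale.

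Antigen presentation genes fell in both MHC classes. Of 15 class II genes 9 fell and 0 rose, where 12% of all genes fell and 5.08% rose. The classical class II gene H2-Ab1 was at 176 and 144 CPM in EV and at 26.7 and 19.2 in BCR-ABL1. Ciita, the master activator of class II transcription, was at 11.9 and 13.9 against 0.616 and 0.208. Cd74, the invariant chain, fell less, from 531 and 443 to 287 and 199 CPM, and its call was lost without either BCR-ABL1 library or EV replicate 1 (edgeR adjusted p of 0.054 to 0.216). In C-MYC, Cd74 was at 29.3 and 49.8 CPM, below BCR-ABL1 by 2.62 ± 0.27 (SE) on the log2 scale. Class II genes are also expressed by dendritic cells and macrophages, whose markers fell with them.

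Of 16 class I genes tested, 10 fell and 0 rose, where 12% of all genes fell and 5.08% rose. H2-K1, a classical class I chain, was at 2535 and 1788 CPM in EV and at 1122 and 1025 in BCR-ABL1, a change of -1.01 ± 0.16 (SE). Nlrc5, the activator of class I transcription, was at 391 and 275 against 143 and 126, and H2-T23 at 222 and 130 against 59.9 and 58.6. The conditions did not overlap, and EV replicate 1 was above EV replicate 2 for each. Without 1 BCR-ABL1 library, 2 to 4 of the 16 genes were called. H2-K1 was lost without replicate 2 (edgeR adjusted p = 0.0565) and Tapbpl without either (edgeR adjusted p of 0.0756 and 0.0913). Class I genes share sequence with each other, so reads of H2-K1 and H2-T23 may be partly assigned to other copies.

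Interferon-stimulated genes fell in 16 of 24 members and rose in 0, with a median log2 difference of -1.46. Over all genes tested, 12% fell and 5.08% rose. Their summed CPM was 1182 in EV replicate 1, 594 in EV replicate 2 and 374 and 351 in BCR-ABL1. The EV libraries therefore differed from each other by more than EV replicate 2 differed from BCR-ABL1. Irf9, a subunit of the factor that transmits type I interferon signals, was at 111 and 72.6 CPM in EV and at 38.9 and 33.9 in BCR-ABL1. Oasl2 was at 8.13 and 6.23 against 0.948 and 0.665, Oas3 at 7.71 and 5.73 against 0.901 and 0.415, and the antiviral gene Rsad2 at 7.15 and 4.97 against 0.427 and 0.540. Gbp2, a guanylate-binding protein gene induced by interferon gamma and named after its values were seen, was at 612 and 194 CPM against 128 and 109. Without an EV library 14 to 19 of the 24 were called lower, and without a BCR-ABL1 library 4. The calls of Irf9, without BCR-ABL1 replicate 2, and of Gbp2, without either, were lost (edgeR adjusted p of 0.0547 to 0.17). The sum was lowest in C-MYC, at 170 and 196 CPM. In the direct test 14 of the 24 genes were higher in BCR-ABL1 than in C-MYC, where 11.9% of all genes were.

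The C-MYC libraries, made from the same kind of culture, set a further reference. Against C-MYC, 23.4% of genes were called, 11.9% higher and 11.5% lower in BCR-ABL1. Between C-MYC and EV 43.1% were called, 18.6% higher and 24.5% lower in C-MYC. Of the 16 B lineage identity genes, 10 were higher in BCR-ABL1 than in C-MYC and 0 lower, and of 23 pre-B cell receptor genes 15 were higher. Ebf1 was at 356 and 288 CPM in C-MYC against 620 and 564 in BCR-ABL1, and Cd79a, the Ig-alpha chain, at 812 and 603 against 1653 and 1424. All C-MYC values of these genes were below the BCR-ABL1 values. Of the 9 non-B cell lists, the macrophage list had the most members that differed between the oncogenes.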

How the data were processed

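Per the submitters' notes, the authors used STAR 2.5.0 with the mm10 genome and UCSC known genes, and deposited unnormalized counts per gene symbol, which were used for all results. The deposited FPKM values, made by the authors with StringTie 1.3.0, entered an alternative only. The counting program and its handling of strand are not given in the sources used here, so counts of paralogs, overlapping and antisense genes are uncertain. 0 columns of other samples were present.

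All 6 RNA-seq libraries entered 1 edgeR 4.0.16 model in R 4.3.3, with filterByExpr, TMM and the quasi-likelihood test, which was checked on simulated data. Adjusted p-values are Benjamini-Hochberg values over 12786 genes, and the SE is the absolute log2 fold change over the square root of F. The 38 gene lists, and the rules for members and named genes, were chosen with earlier results of these data known. Named were the 12 largest rises, and the 12 largest falls outside the non-B cell lists. Both sets required no overlap between the conditions and at least 50 counts on average. Also named were the 3 most abundant markers of each non-B cell list, the 4 lowest p-values of each other list and 8 check genes. Members completing counts up to 5 were named as well. Ebf1, Pax5, Vpreb1, Igll1, Cd79a, Socs2, Pim1, Stat5a, Stat5b, Kit and Cd74 were named after their values were seen. Alternatives covered filters, scaling, DESeq2 1.42.0, limma 3.58.1 on log2(FPKM + 1) and log2(FPKM + 0.1), a fit of 4 libraries, a replicate block, and each library left out. Where 1 library is left out, the lone library is assumed to vary like the other groups. Replicates differed by more than sampling noise: the chi-square of their counts divided by its degrees of freedom was 10.1 (BCR-ABL1) to 42.9 (EV). ChIP-seq samples of the series were not analysed here. A few genes that the naming rule gives are not reported here.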

Additional observations from a re-analysis of the deposited data

How the results depend on the processing

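With DESeq2 size factors, TMM without the non-B cell markers, either other filter, or DESeq2 itself, 574 to 967 genes were higher and 1375 to 1782 lower. With the 4 libraries of BCR-ABL1 and EV alone, 402 were higher and 1332 lower. limma on log2(FPKM + 1) gave 245 and 994, and on log2(FPKM + 0.1) 193 and 922, in 11012 genes. Leaving out 1 library gave 118 to 1000 higher and 547 to 1799 lower, with the lowest counts without a BCR-ABL1 library. The numbers of the replicates may not pair the samples, since no label says so and there are 2 of them, but deviations from the group mean correlated at 0.334 between EV and BCR-ABL1 over 12786 genes (Pearson's r). With a replicate block, 1221 genes were called higher and 2003 lower, including all 650 and 1530 called without the pairing. Of 218 genes followed by name, 141 to 151 kept their side of the threshold and their direction without a BCR-ABL1 library, 192 to 193 without an EV library, and 158 to 169 of 206 did with limma, 208 of 216 with the CPM filter and 194 to 216 of 218 under the other settings. The genes that changed direction had no call with all libraries, although Pim1 was called without EV replicate 2 and Pax5 without EV replicate 1. Inpp5d, at -0.00 on the log2 scale, was at 0.0051 with no filter, 0.015 with DESeq2 size factors, 0.023 with DESeq2 and 0.00042 with the replicate block, and -0.13 to 0.14 without 1 library. Trp53bp1 was at 0.15 and 0.18 with limma and the larger and smaller pseudocount, and at -0.47 to 0.36 without 1 library. The same ranges were -0.16 to 0.96 for Pim1, -0.20 to 0.13 for Rag2, -0.30 to 0.13 for Stat5a, -0.15 to 1.23 for Alas2, -0.063 to 0.44 for Igll1, -0.58 to 0.036 for Pax5 and -0.033 to 0.33 for Vpreb1. The cause of these moves was not tested. With 2 libraries a condition, differences of the size of those in the ribosome and nucleotide lists lay near the threshold.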

Other observations

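Several further genes with large or precise differences stood outside the lists and were chosen after their values were seen. All their calls held when any single library was left out. Epcam, an epithelial adhesion molecule, was at 4.39 and 5.22 CPM against 37.3 and 44.9, and Ctla4, an immune checkpoint receptor known from T cells, at 9.91 and 12.2 against 71.9 and 56.6. Ctla4 rose by 2.53 ± 0.18 (SE) on the log2 scale while all 11 T cell markers fell. Crip1, a small LIM protein gene, was at 73.0 and 67.6 CPM against 296 and 257, and the transcriptional co-regulator gene Cited2 at 143 and 124 against 493 and 458. H19, an imprinted long noncoding RNA, was at 38.4 and 68.6 CPM in EV, at 189 and 218 in BCR-ABL1 and at 416 and 339 in C-MYC, and Igf2bp3, which encodes an oncofetal RNA-binding protein, at 14.0 and 15.3 against 39.3 and 29.5 in BCR-ABL1. For all these genes both BCR-ABL1 libraries stood above both EV libraries.

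Enzyme and transporter genes outside the lists were among those that rose. Gldc, the glycine decarboxylase, was at 616 and 600 CPM in EV and at 1160 and 1163 in BCR-ABL1, a rise of 0.93 ± 0.09 (SE). Txnrd1, thioredoxin reductase, was at 273 and 285 CPM against 489 and 528, and the purine and methionine salvage genes Adk and Mtap at 30.3 and 32.1 against 55.6 and 55.7 and at 81.8 and 81.2 against 139 and 151. The zinc and metal transporter gene Slc39a8 rose from 4.81 and 5.22 to 24.1 and 19.3 CPM. Fcrla, a B cell Fc receptor-like gene, fell from 73.9 and 89.6 to 26.7 and 22.8 CPM, and was at 22.8 and 17.7 in C-MYC.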
